A study of Mus musculus with 6 samples.

Results

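Signalling through the ERK mitogen-activated protein kinase is held in check by genes that it often induces itself, among them dual-specificity phosphatase and Sprouty genes. Of these families, 10 genes were examined in mouse embryonic fibroblasts (MEFs) exposed to small molecules that act on mitofusins. Not all of them act on ERK alone, and Dusp8 and Dusp10 encode phosphatases for JNK and p38. The members were taken by gene symbol: Dusp1, Dusp4, Dusp5, Dusp6, Dusp8 and Dusp10, which encode dual-specificity phosphatases, and Spry2, Spry4, Spred1 and Spred2, which encode Sprouty and Sprouty-related proteins. They are 10 of the 55291 genes listed, and all 10 were among the 14290 genes with enough counts to be tested. The rule used symbols and no measured value, but it was set with earlier results of these data known. Wild-type (WT) MEFs received vehicle, or 1 μM MASM7 or 20 μM MFI8 for 6 h, and each of the 3 groups had 2 poly(A) RNA-seq libraries. The study describes MASM7 as an activator and MFI8 as an inhibitor of MFN1 and MFN2, the proteins that fuse the mitochondrial outer membrane. The question addressed here is how the 10 genes were expressed under each compound. The cells carried no engineered allele according to the labels, which give neither the length of the vehicle treatment nor whether the libraries of a group came from separate cultures, so that p-values measure the spread between libraries, which may be technical.

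In the ERK cascade, ligand-bound receptor tyrosine kinases load RAS with GTP through adaptors and SOS, RAS recruits RAF kinases, and RAF acts through MEK on ERK, which enters the nucleus and drives transcription. Dual-specificity phosphatases of the MAP kinase phosphatase class remove phosphate from both the threonine and the tyrosine of the activation loop of ERK, JNK or p38, whereas Sprouty and Spred proteins act upstream, between the receptor and RAF. In fibroblasts several of these genes are known as immediate early or delayed early genes of growth factor signalling, and transcripts of this kind are usually short-lived.

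The libraries held between 22791792 and 30677751 counts, and the members together took 0.0386% to 0.0459% of them. Fibroblast markers summed to 4065 to 5144 TPM (a level per transcript length, scaled to the same total in each library) across the libraries, with 8 of the 10 at 1 TPM or more and Lum and Thy1 below it. Epithelial and endothelial markers summed to at most 0.486 and 0.432 TPM, with 0 of 6 markers of either list at 1 TPM. The leukocyte list summed to 4.18 to 6.10 TPM, with 1 of its 6 markers reaching 1 TPM. The skeletal muscle list summed to 0.832 to 1.17 TPM with vehicle, 0.761 to 1.06 with MASM7 and 1.77 to 1.85 with MFI8. Of its 6 markers 1, Acta1, reached 1 TPM. The neural list summed to 263 TPM with vehicle in both libraries, to 280 to 291 with MASM7 and to 290 to 309 with MFI8, with Nes and Tubb3 among the 3 of its 6 markers at 1 TPM or more, while Sox10 and Sox2 had no counts in any library. In bulk RNA, fewer cells that express a gene and less RNA of it per cell cannot be told apart.

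The promoter sequences of RefSeq (GRCm38.p6) were read for 8 of the 10 members over the 250 bases before the annotated start. Of the 8, only Dusp1 and Dusp8 held a complete cAMP response element (CRE, TGACGTCA), the palindrome bound by CREB and ATF factors. Their stretches were picked for display with the expression values known. These 2 had the largest log2 fold changes of the members between MFI8 and MASM7, although the Dusp8 libraries overlapped. A link between the element and expression was not tested. That element was found in 1.55% of 32851 promoters of the same length, searched on both strands. The Dusp1 stretch lies at chr17:26508588-26508672 on the minus strand, from 200 to 116 bases before the start. The Dusp8 stretch lies at chr7:142095325-142095404 on the minus strand, from 120 to 41 bases before the start. Both lie within the annotated span of their gene and in no annotated exon, and capitals mark each complete element.

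Dusp1: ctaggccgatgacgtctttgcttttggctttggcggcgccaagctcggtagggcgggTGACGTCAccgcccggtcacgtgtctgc

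Dusp8: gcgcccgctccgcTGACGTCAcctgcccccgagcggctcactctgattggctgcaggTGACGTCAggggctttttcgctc

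The element begins 143 bases before the start in Dusp1, and 107 and 63 bases before it in Dusp8. The half-site TGACG, which is contained in the complete element on either strand, was present in 4 of the 8 promoters, those of Dusp1, Dusp5, Dusp8 and Spred2, against 17.8% of all promoters. Dusp5, the member with the highest level, was the only one of the 8 with a CArG box, the element bound by serum response factor, which 1.47% of all promoters held. Its pair of adjacent boxes, in capitals, lies at chr19:53529058-53529087 on the plus strand, upstream of Dusp5 and within an exon of the annotated antisense transcript AC137853.2, with the boxes beginning 82 and 72 bases before the start.

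Dusp5: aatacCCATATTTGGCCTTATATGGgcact

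No promoter of the 8 held the AP-1 element TGANTCA (6.75% of all promoters), the ETS element CCGGAAG (6.91%) or TATAAA (12.4%) in this window. Such matches describe letters in the sequence and not occupancy by a factor.

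Per transcript length the members spanned a wide range in vehicle-treated fibroblasts. Dusp5, a nuclear phosphatase for ERK, had the highest level, at 156 and 115 TPM in the vehicle libraries. Spred1 followed at 68.6 and 63.4 TPM and Spry2 at 60.5 and 51.6 TPM. Dusp6, the cytoplasmic phosphatase for ERK, lay at 51.3 and 40.3 TPM and overlapped Spred2 at 43.8 and 41.1 TPM, so that their order was not resolved. Dusp4, a nuclear phosphatase for ERK and JNK, stood at 34.3 and 23.7 TPM. Dusp1 at 15.6 and 16.2 TPM and Dusp10 at 16.6 and 15.0 TPM overlapped each other. The lowest levels were those of Dusp8, at 6.13 and 9.58 TPM, and Spry4, at 3.59 and 3.39 TPM.

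The order kept its ends under both compounds, with Dusp5 first, Dusp8 ninth and Spry4 last. In the MASM7 libraries Spry2 and Spred1 overlapped, at means of 59.1 and 58.1 TPM, and Dusp10 at 17.1 TPM stood above Dusp1 at 12.9 TPM without overlap. In the MFI8 libraries Dusp4 reached a mean of 43.6 TPM and overlapped both Dusp6 at 45.4 TPM and Spred2 at 42.7 TPM, which it had not done with vehicle. Dusp1 and Dusp10 again overlapped, at means of 22.7 and 20.5 TPM.

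**Figure D1:**
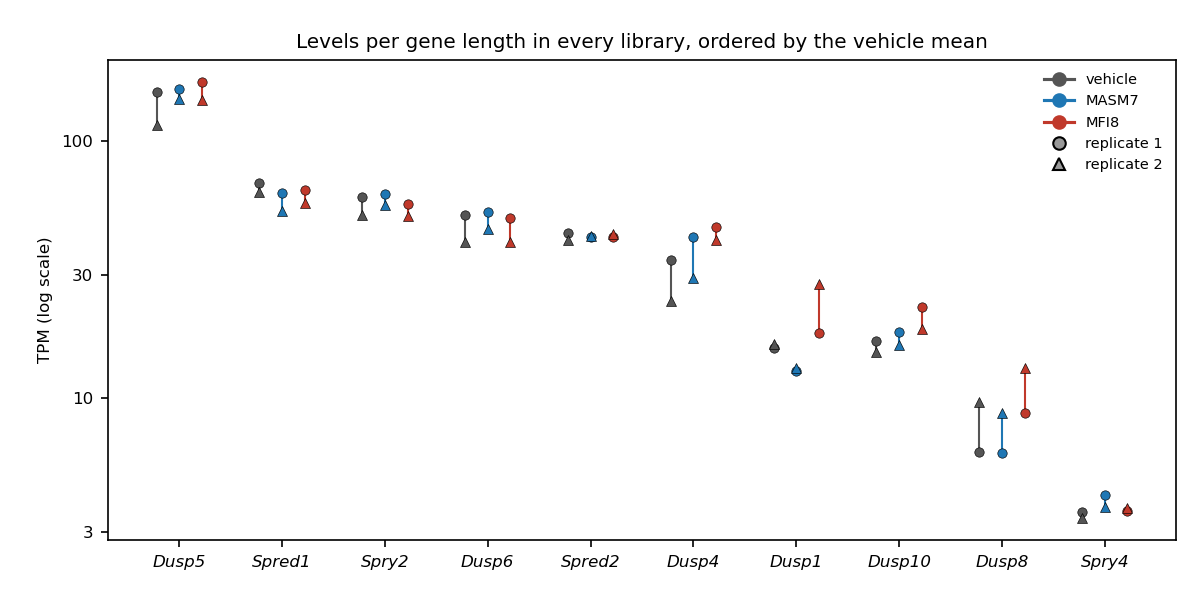
Level of the 10 genes in TPM on a log axis, with genes ordered by their vehicle mean and colours for vehicle, MASM7 and MFI8. Circles are replicate 1 and triangles replicate 2 of each group, joined by a line; Dusp5 lies above all other genes and Spry4 below all others in every library.

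For MFI8 against vehicle, 3 phosphatase genes, Dusp1, Dusp4 and Dusp10, stood above both vehicle libraries in each MFI8 library, by 1.27 to 1.47 times on average. The other phosphatase genes, Dusp5, Dusp6 and Dusp8, overlapped vehicle, at folds of 1.14, 0.970 and 1.37. The Sprouty and Spred genes were within 10% of vehicle. None of the 10 had an adjusted p under 0.05 in the quasi-likelihood test of edgeR, adjusted by Benjamini-Hochberg over all genes tested, and the background was 0% of the 14290 genes. DESeq2 called 0.381% of the genes that it tested, 47 of 12350, and none of the members. The calls depended on whether the replicate numbers, whose meaning the labels do not give, were taken to pair the libraries. With the number as a block, 5 of the 10 members passed in edgeR, against 5.04% of all genes: Dusp4, Dusp1, Dusp8, Dusp10 and Dusp5, all higher, with adjusted p of 4.12e-05, 0.00736, 0.00914, 0.0280 and 0.0497. At an unadjusted p under 0.05 there were 3 members, all higher, against 5.21% of all genes higher and 9.86% in either direction. Over the 10 members 6 had higher and 4 lower values, with a median log2 fold change of 0.12, against a median of 0.0027 and 50.7% higher over all genes tested. The members' median was -0.015 without vehicle replicate 2 and 0.052 with offsets for GC content and length. Complete separation upwards, as for these 3 members, was seen in 20.9% of all genes, and complete separation in either direction in 40.2%. Of the fibroblast markers tested, 8 of 9 were lower with MFI8, with a median log2 fold change of -0.33 and none with an unadjusted p under 0.05. The share of counts from genes of the mitochondrial genome was 1.37% and 1.43% in the MFI8 libraries, against 1.66% and 1.82% in the vehicle and 1.61% and 1.51% in the MASM7 libraries. The part of these shifts, and of the higher neural and skeletal muscle marker sums given above, in the values of the members was not tested.

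Dusp1 encodes a nuclear phosphatase that acts on p38, JNK and ERK and is itself an immediate early gene. Its reads numbered 336 and 379 in the vehicle, 355 and 376 in the MASM7 and 377 and 783 in the MFI8 libraries, which is 14.7 and 15.1 CPM (counts scaled to library size with TMM factors, not per length), 12.0 and 12.4 CPM, and 16.4 and 25.4 CPM. Vehicle and MASM7 libraries were tight, whereas the MFI8 libraries were far apart, with replicate 2 well above replicate 1. The log2 fold change of Dusp1 for MFI8 against vehicle was 0.50 (standard error 0.17), a fold of 1.41, with an adjusted p of 0.412 from the edgeR test. Without MFI8 replicate 2 it was 0.14, and without MFI8 replicate 1 it was 0.77, with an adjusted p of 0.0176 from edgeR in a fit that takes the lone library to vary like the other groups. The size of the Dusp1 difference therefore rested on which MFI8 library was used.

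Dusp4 had 26.8 and 18.3 CPM with vehicle, 33.0 and 22.9 CPM with MASM7 and 35.1 and 31.1 CPM with MFI8. Both MFI8 libraries lay above both vehicle libraries, while one MASM7 library fell within the vehicle range. Its log2 fold change for MFI8 against vehicle was 0.56 (standard error 0.19), the largest of the 10, with an adjusted p of 0.412 from the quasi-likelihood test of edgeR, adjusted by Benjamini-Hochberg. It lay between 0.30 without vehicle replicate 2 and 0.86 without vehicle replicate 1. Dusp4 lies at chr8:34807297-34819894 of GRCm38 (GENCODE vM21).

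Dusp10 encodes a phosphatase with a preference for JNK and p38. Its values were 14.3 and 12.8 CPM with vehicle, 15.7 and 14.0 CPM with MASM7 and 19.0 and 15.7 CPM with MFI8, so that the MFI8 libraries were the higher ones without overlap with vehicle, by a narrow margin in replicate 2. The log2 fold change of Dusp10 for MFI8 against vehicle was 0.35 (standard error 0.12), with an adjusted p of 0.419 from the same edgeR test. It was 0.21 without MFI8 replicate 1 and 0.48 without MFI8 replicate 2. Dusp10 lies at chr1:184013302-184075636.

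Dusp8, which encodes another phosphatase for JNK and p38, differed as much on average but overlapped. It had 8.51 and 13.1 CPM with vehicle, 8.42 and 12.2 CPM with MASM7 and 11.8 and 17.7 CPM with MFI8. In each group the library numbered 2 was the higher one, and the lower MFI8 library lay below the higher vehicle library. Its log2 fold change for MFI8 against vehicle was 0.45 (standard error 0.25), with an adjusted p of 0.573 from edgeR, and it ranged from 0.12 to 0.80 when 1 library was left out.

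Dusp5 and Dusp6 encode phosphatases with a preference for ERK. Dusp5 had 110 and 80.2 CPM with vehicle, 112 and 103 CPM with MASM7 and 117 and 99.2 CPM with MFI8, so that the lower vehicle library stood apart from the other 5 and the groups overlapped. The log2 fold change of Dusp5 was 0.19 (standard error 0.13) with MFI8 and 0.18 (standard error 0.13) with MASM7, and these values were -0.02 and -0.03 without vehicle replicate 2 and 0.43 and 0.42 without vehicle replicate 1. For Dusp6 the values were 45.7 and 35.5 CPM with vehicle, 47.2 and 40.6 CPM with MASM7 and 43.7 and 35.2 CPM with MFI8, with log2 fold changes of -0.04 for MFI8 (95% interval -0.35 to 0.26) and 0.11 for MASM7 (-0.18 to 0.41). The exons of Dusp5 share 547 bases with those of the antisense transcript AC137853.2, those of Dusp1 share 11 with Ergic1 on the opposite strand, which had up to 7732 counts in a library, and those of Dusp8 share 66 with Gm32786, which had at most 1 count. The strand setting of the counting is not given in the sources used here, so reads on these bases cannot be assigned with certainty.

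Among the upstream inhibitors, Spry2 and Spry4 encode Sprouty proteins, which bind adaptors and RAF and dampen receptor signalling. Spry2 had 36.0 and 30.3 CPM with vehicle, 37.1 and 33.5 CPM with MASM7 and 32.7 and 29.6 CPM with MFI8. Spry4, at 110 to 168 counts a library the sparsest of the members, had 4.87 and 4.53 CPM with vehicle, 5.68 and 5.10 CPM with MASM7 and 4.79 and 4.89 CPM with MFI8. For both genes the vehicle and MFI8 libraries overlapped, and the log2 fold changes with MFI8 were -0.09 for Spry2 (95% interval -0.31 to 0.13) and 0.05 for Spry4 (-0.30 to 0.39).

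Spred1 and Spred2 encode membrane-bound proteins that recruit neurofibromin, the RAS GTPase-activating protein, and so lower RAS activity. Spred1 had 132 and 121 CPM with vehicle, 122 and 104 CPM with MASM7 and 121.5 and 108 CPM with MFI8, with log2 fold changes of -0.15 for MFI8 (standard error 0.088) and -0.17 for MASM7 (standard error 0.088) and overlapping libraries in both comparisons. With 1 library left out these ran from -0.23 to -0.060 and from -0.29 to -0.057. Spred2 was the steadiest of the 10, with 57.7 and 53.4 CPM with vehicle, 55.9 and 56.2 CPM with MASM7 and 54.3 and 55.3 CPM with MFI8. The 95% intervals of its log2 fold change were -0.16 to 0.12 for MFI8 and -0.13 to 0.16 for MASM7, and its sign turned with the unit or the library left out.

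**Figure D2:**
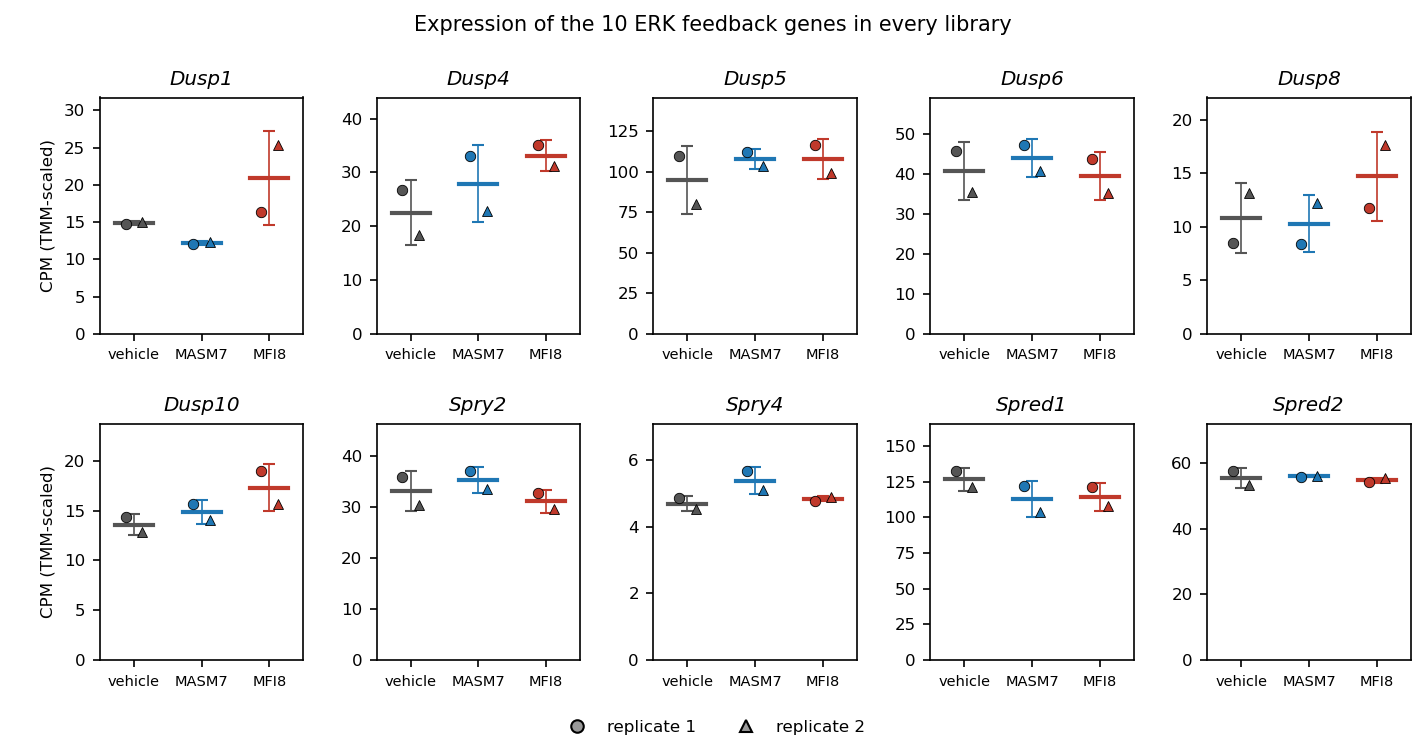
Expression of each of the 10 genes in CPM scaled with TMM factors, from 0, in every library. Circles are replicate 1, triangles replicate 2, horizontal bars the group mean and error bars the SD of the 2 libraries; for Dusp1 the 2 MFI8 libraries lie at 16.4 and 25.4 CPM, above the vehicle libraries, while the MASM7 libraries lie at 12.0 and 12.4 CPM.

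For MASM7 against vehicle, no member had an unadjusted p under 0.05 in edgeR, against 10.2% of all genes (5.32% higher and 4.88% lower), and none had an adjusted p under 0.05, against 0% of all genes. DESeq2 called 3 genes, 0.021%, none of them a member. With the replicate number as a block, Dusp4, which was higher, and Spred1, which was lower, passed in edgeR, at adjusted p of 0.0327 and 0.0404, against 3.88% of all genes. The members had 7 higher and 3 lower values, with a median log2 fold change of 0.10, against 50.1% higher over all genes. With 1 library left out the median ran from -0.026, without vehicle replicate 2, to 0.22, without vehicle replicate 1, and 1 or 2 members had an unadjusted p under 0.05. The mitochondrial share of counts was below, and the neural marker sum above, that of both vehicle libraries with MASM7 too, and their part in these values was not tested. Dusp1 was the 1 member lower in both MASM7 libraries than in either vehicle library, at a log2 fold change of -0.29 (standard error 0.17 and adjusted p of 0.574 from the quasi-likelihood test of edgeR, adjusted by Benjamini-Hochberg), and Spry4 the 1 member higher in both, at 0.20 (standard error 0.15 and adjusted p of 0.652). Separation downwards was seen in 21.6%, upwards in 21.2% and in either direction in 42.8% of all genes. Unlike the Dusp1 value for MFI8, that for MASM7 hardly moved with the library left out, from -0.31 to -0.27. The remaining log2 fold changes for MASM7 were 0.31 for Dusp4, 0.13 for Dusp10, -0.07 for Dusp8, 0.09 for Spry2 and 0.01 for Spred2. That of Dusp4 ran from 0.03 without MASM7 replicate 1 to 0.61 without vehicle replicate 1, and was 0.06 without vehicle replicate 2 and 0.55 without MASM7 replicate 2.

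The 2 treatments were also set against each other, which compares 20 μM MFI8 with 1 μM MASM7, so that the compound cannot be told apart from its concentration. Dusp1 stood out among the members, with both MFI8 libraries, at 16.4 and 25.4 CPM, above both MASM7 libraries, at 12.0 and 12.4 CPM. Its log2 fold change was 0.79 (standard error 0.17, 95% interval 0.41 to 1.17), a fold of 1.73. By unadjusted p, 9.05e-04, it ranked 39 of the 14290 genes. The adjusted p was 0.321 in edgeR and 0.0263 in DESeq2, which called 24 of 10965 genes, 0.219%, while edgeR called 0%. Leaving out 1 library gave Dusp1 values from 0.43, without MFI8 replicate 2, to 1.06, without MFI8 replicate 1.

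Dusp8 had the next largest difference between the treatments, at a log2 fold change of 0.52 (standard error 0.24 and adjusted p of 0.691 from the quasi-likelihood test of edgeR, adjusted by Benjamini-Hochberg), with overlapping libraries. It was 0.19 without MFI8 replicate 2, 0.28 without MASM7 replicate 1 and 0.82 without MASM7 replicate 2. With the replicate number as a block, Dusp1 and Dusp8 passed in edgeR, at adjusted p of 4.22e-05 and 0.00249, against 3.07% of all genes. Spry2, Spry4 and Spred2 had both MFI8 libraries below both MASM7 libraries, by 0.18, 0.15 and 0.03 on the log2 scale. Counting Dusp1, 4 of the 10 members were separated between the treatments, against 39.2% of all genes (19.6% upwards and 19.6% downwards). The share with an unadjusted p under 0.05 was 1 of 10 members, Dusp1, against 7.18% of all genes (4.23% higher and 2.95% lower). Dusp5 was nearly equal under the 2 treatments, at a log2 fold change of 0.0028 with a 95% interval from -0.28 to 0.28. The median over the members was 0.012, with 6 higher and 4 lower, against 49.5% higher over all genes. The arrangement of Dusp1, with MFI8 above and MASM7 below the shared vehicle libraries and no overlap, was found in 1.5% of all genes. The reverse arrangement was found in 0.952%.

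**Figure D3:**
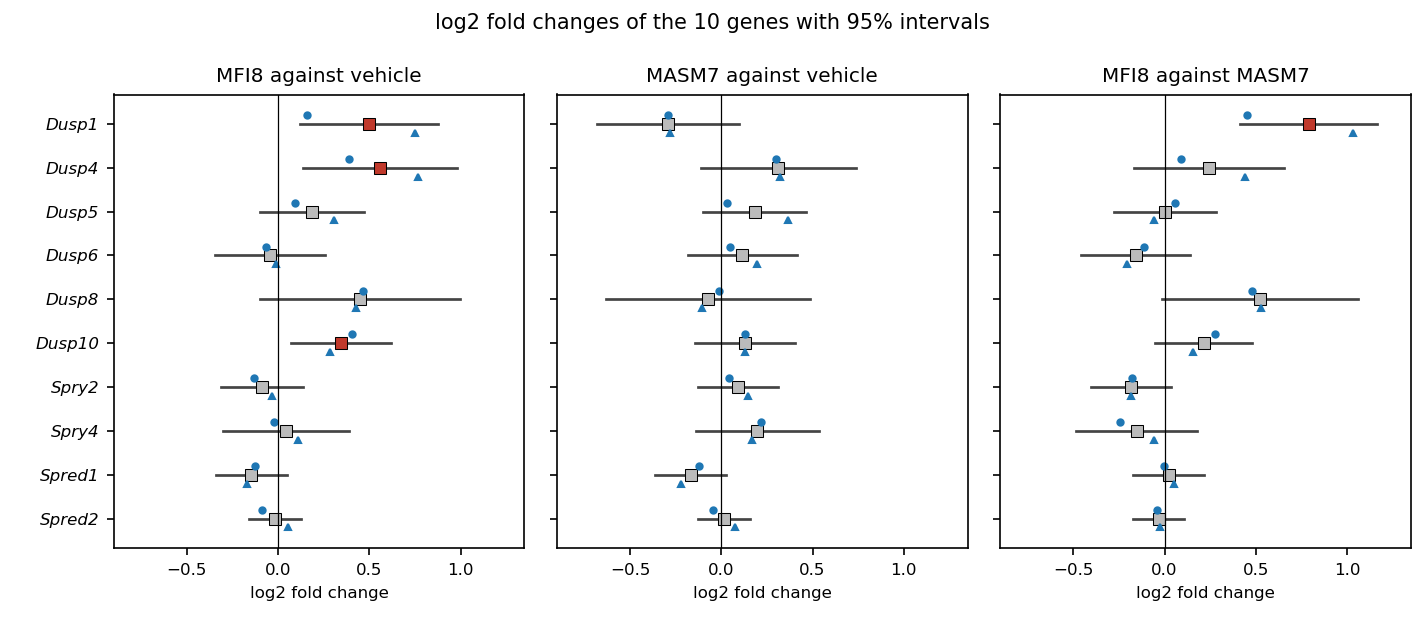
log2 fold changes of the 10 genes for MFI8 against vehicle, MASM7 against vehicle and MFI8 against MASM7, from the edgeR fit of all 6 libraries. Squares are estimates with 95% intervals, red where the unadjusted p was under 0.05. Small blue circles and triangles are the differences in log2 CPM between the groups in the libraries numbered 1 and in those numbered 2. Between the treatments Dusp1 reaches 0.79, and its interval alone excludes 0. For MFI8 against vehicle those of Dusp1, Dusp4 and Dusp10 exclude 0, and for MASM7 against vehicle none does.

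Other genes of the pathway were read from the same fit, from lists grouped by role. Of 7 further MAP kinase phosphatase, Sprouty and Spred genes, 6 were tested. Against vehicle, 4 were higher and 2 lower with MFI8 and none had an unadjusted p under 0.05, whereas 3 of the 6 did with MASM7, all higher, against 5.32% of all genes. These 3 were Dusp9, an ERK phosphatase with 161 and 140 CPM with vehicle and 174 and 175 CPM with MASM7, Dusp7, a cytoplasmic ERK phosphatase, and Spred3. Dusp7 and Spred3 were named after their values were seen. The log2 fold changes for MASM7 were 0.21, 0.26 and 0.27, with adjusted p of 0.473, 0.477 and 0.477 from the quasi-likelihood test of edgeR, adjusted by Benjamini-Hochberg. With MFI8 they were -0.03, 0.14 and 0.05. Dusp2, at 0.888 to 1.62 CPM close to the limit of the filter, had a log2 fold change of 0.50 for MFI8. Dusp16, a phosphatase for JNK and p38, had 0.28, and Spry1 had -0.12. With 1 library left out Dusp16 ran from -0.051 to 0.53, and it passed in edgeR with the replicate block.

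Upstream of RAS, 10 of 15 receptors and adaptors were higher and 5 lower with MFI8, with a median log2 fold change of 0.03 and none with an unadjusted p under 0.05, against 50.7% higher and 9.86% under that p over all genes. The epidermal growth factor receptor gene Egfr had 0.14 and the insulin-like growth factor 1 receptor gene Igf1r 0.10 (0.020 to 0.18 with 1 library left out), while the platelet-derived growth factor receptor genes Pdgfra and Pdgfrb had -0.38 and -0.34. With 1 library left out, Pdgfra and Pdgfrb ran from -0.71 to 0.033 and from -0.61 to -0.030, nearest to or past 0 without vehicle replicate 1, and both genes passed in edgeR with the replicate block. With MASM7 5 were higher and 10 lower, again with none under 0.05, against 50.1% and 10.2%.

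From RAS to ERK, 13 genes were tested, with a median log2 fold change of 0.0094 for MFI8 and 0.013 for MASM7. With MFI8, 4 of them had an unadjusted p under 0.05, 2 higher and 2 lower, against 5.21% and 4.65% of all genes, and none of these passed after adjustment, although Braf did with the block and the offsets for GC content and length together. Ksr1, which encodes a scaffold of the cascade, and Braf were higher, by 0.20 and 0.14 on the log2 scale.

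Transcripts commonly used as readouts of ERK output were tested for 16 of 17 genes, and 10 were higher and 6 lower with either compound. For MFI8, 6 of the 16 were higher and 1 lower at an unadjusted p under 0.05, against 5.21% and 4.65% of all genes. For MASM7, 4 of the 16 were higher and 0 lower, against 5.32% and 4.88%. Plaur, which encodes the urokinase receptor, had 134 and 128 CPM with vehicle, 162 and 156 CPM with MASM7 and 164 and 163 CPM with MFI8, so that all 4 treated libraries lay above both vehicle libraries. Its log2 fold change was 0.32 (standard error 0.053) for MFI8 and 0.28 (standard error 0.053) for MASM7, with adjusted p of 0.0924 and 0.466 from edgeR. Myc, which encodes a growth-promoting transcription factor, had a log2 fold change of 0.34 for MFI8 (standard error 0.077 and adjusted p of 0.270 from edgeR). The lower gene was Etv1, an ETS factor gene, at -0.75 (standard error 0.31 and adjusted p of 0.455 from edgeR) and with under 8 CPM in every library, and Ereg, which encodes the receptor ligand epiregulin, had -0.29. With 1 library left out, Etv1 ran from -1.03 without vehicle replicate 2 to -0.41 without vehicle replicate 1, and Ereg from -0.53 to -0.0026 for the same libraries. Plaur, Myc, Etv1 and Ereg passed in edgeR with the replicate block, and Plaur and Myc also in DESeq2.

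Of 9 other feedback inhibitors of receptor signalling, 3 were higher and 6 lower with MFI8, with a median log2 fold change of -0.01 and none with an unadjusted p under 0.05, against 9.86% of all genes. Among them Rasal2, a RAS GTPase-activating protein gene, had 0.11, Cbl, a ubiquitin ligase gene, 0.06, Lrig1 -0.07 and Il17rd -0.05. Of the JNK and p38 cascade, whose kinases Dusp1, Dusp8 and Dusp10 act on, 17 of 19 genes were tested and none had an unadjusted p under 0.05 with either compound, against 9.86% of all genes with MFI8 and 10.2% with MASM7. Their log2 fold changes spanned -0.48 to 0.46 with MFI8 and -0.26 to 0.46 with MASM7, and 7 and 10 of the 17 were separated from vehicle, against 40.2% and 42.8% of all genes. The p38 gene Mapk11 had a log2 fold change of 0.17 for MFI8, Map3k5 0.46 at 0.994 to 2.37 CPM, Map3k7 -0.11 and Map2k4 -0.11. With 1 library left out Map3k5 ran from 0.037 to 1.02, Map3k7 from -0.16 to -0.060 and Map2k4 from -0.18 to -0.040.

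**Figure D4:**
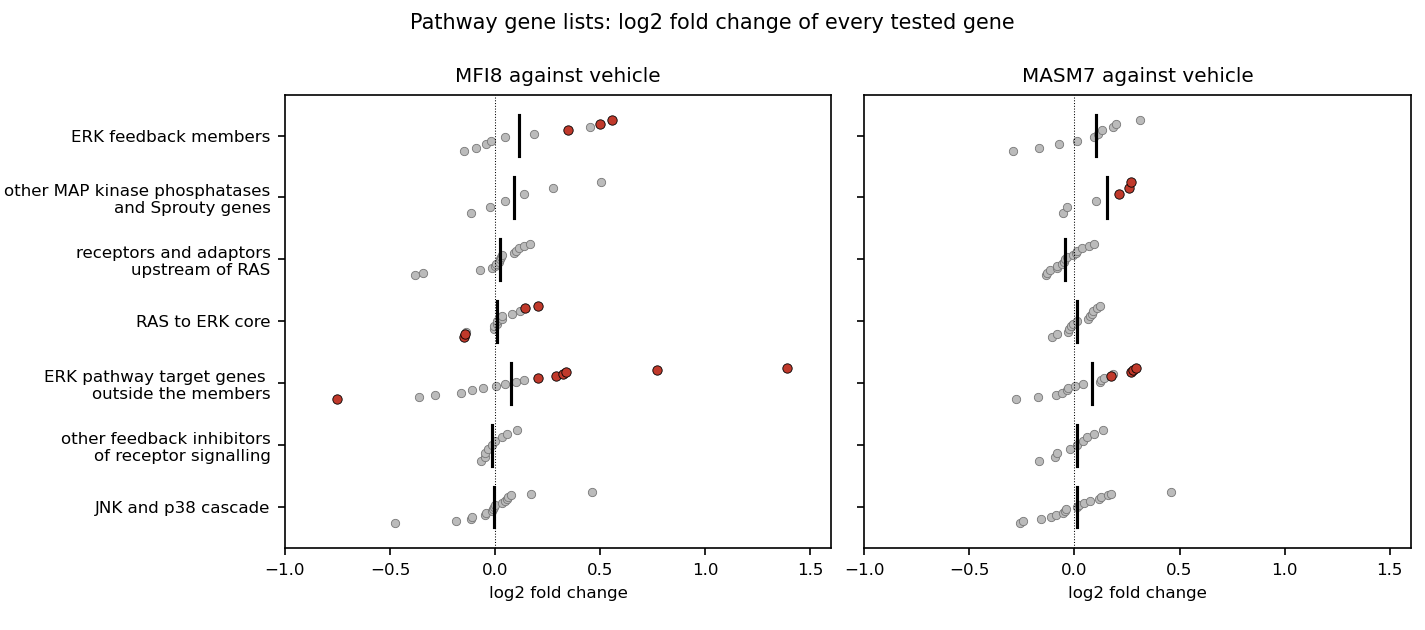
log2 fold change of every tested gene of 7 pathway lists, for MFI8 against vehicle and MASM7 against vehicle, from the edgeR fit. Each point is a gene, red where the unadjusted p was under 0.05, and each black bar is the median of its list; the list medians lie between -0.01 and 0.12 with MFI8 and between -0.04 and 0.16 with MASM7.

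Over the 6 libraries the members fell into no single pattern. The log2 CPM of Dusp6 and Spry2 ran together, at a Pearson's r of 0.95, as did that of Dusp4 and Dusp10, at 0.89, and of Dusp4 and Dusp5, at 0.84. Dusp8 ran against Spry2 and Dusp6, at -0.95 and -0.90, and Dusp1 with Dusp8, at 0.77. These 6 points share the treatments and the replicate numbers, so the values are given as a description only.

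Among 9866 genes with a mean of at least 5 CPM, the profiles most like that of each member were of genes with varied roles. For Dusp1 they were Zfp664 and Tdp2, at r of 0.996 and 0.993, for Dusp4 Serhl and 6430548M08Rik, both at 0.997, and for Dusp5 Tut1 and Plbd2, at 0.994 and 0.990. For Dusp6 they were Gsn and Pdlim2, at 0.998 and 0.996, for Dusp8 Dgkq and Dnajc18, at 0.996 and 0.995, and for Dusp10 Ccdc136 and Ptpdc1, at 0.991 and 0.987. For Spry2 they were Mir17hg and Thra, at 0.997 and 0.995, for Spry4 Eepd1 and Selenos, at 0.990 and 0.967, for Spred1 Prkg2 and Ccng1, at 0.998 and 0.993, and for Spred2 Cdca3 and Rffl, at 0.978 and 0.972. With 6 libraries and so many genes, values this high are found for every member and single out none.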

How the data were processed

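The authors converted reads with bcl2fastq, trimmed them with Trimmomatic, aligned them to mm10/GRCm38 with STAR and counted those on exons with featureCounts, and deposited a raw count per gene. The authors also deposited a normalized signal, the counts divided by 1 size factor per library (0.855 to 1.15), and TPM values. Annotation release and strand setting are not given in the sources used here. The concentrations and the 6 h come from the study's text, and the labels name only the compound. The number of columns not mapped to a sample was 0.

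The counts of all 6 libraries were fitted in edgeR 4.0.16 (R 4.3.3) with TMM, filterByExpr and 1 coefficient per group, with quasi-likelihood F tests adjusted by Benjamini-Hochberg over 14290 genes at 0.05. The common dispersion came to 0.00394. Standard errors were derived from the F statistic (absolute log2 fold change over its root), log2 CPM added a prior count of 2, and replicates 1 and 2 are the labels' numbers. Alternatives were DESeq2 1.42.0, limma 3.58.1 on log2(TPM + 1) or log2(TPM + 0.1) with a minimum of 1 TPM in 2 libraries, other scalings and filters, GC and length offsets by lowess (span 0.3, GENCODE vM21, 97.9% of genes), only the groups compared, the replicate block and each library left out. An exact permutation test of 2 against 2 cannot go below 0.333 and was not used. The statistics were tested on simulated counts with 1 dispersion for all genes, changes of 2-fold either way and no difference between replicate numbers. Such counts do not cover a spread that differs between genes, smaller changes or an effect of the replicate number.

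Members and lists were chosen with earlier results of these data known. All members are named, with the 2 higher and the 2 lower genes of smallest p for MFI8 from each other pathway list and the 2 genes most like each member. The Dusp4 and Spry4 promoters were not analysed here. Some genes that the naming rule selects are not reported here.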

Additional observations from a re-analysis of the deposited data

Results flagged for a closer look

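Dusp1 was set apart because every library of the 2 treatments moved in opposite directions from vehicle. Both MFI8 libraries, at 16.4 and 25.4 CPM, were above the vehicle libraries, at 14.7 and 15.1 CPM, and both MASM7 libraries, at 12.0 and 12.4 CPM, were below them. The difference between the treatments was tested in the edgeR fit and was 0.79 on the log2 scale (standard error 0.17), with an adjusted p of 0.321 from the quasi-likelihood test. Dusp1 passed for this difference in DESeq2 and in edgeR with the replicate number as a block. Both directions are read against the same vehicle libraries, and 214 of the 14290 genes tested, 1.5%, had the same arrangement of libraries. The reverse arrangement, which would also have set a member apart, was found in 136 genes, 0.952%. MFI8 was given at 20 μM and MASM7 at 1 μM, and the compound cannot be told apart from its concentration. No group had the 4 libraries needed to test for an outlying library.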

How the results depend on the processing

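The alternatives were compared for the number of genes called, for the members and, with MFI8 against vehicle only, for the other pathway genes named by the rule. Dusp7, Spred3, the MASM7 values of genes outside the members, and the counts and medians of the other lists were not compared. A count of genes with an adjusted p under 0.05 depended most on the fit. In the order MFI8 against vehicle, MASM7 against vehicle and MFI8 against MASM7, it was 256, 127 and 168 with no filter beyond 1 count in any library, 47, 3 and 24 with DESeq2, 8, 14 and 13 with limma on log2(TPM + 1), 19, 18 and 19 with log2(TPM + 0.1) and 8, 18 and 15 with log2(TPM + 1) and no filter. With only the 2 groups compared it was 1 for MASM7 against vehicle and 2 for MFI8 against MASM7. Leaving out 1 library gave 0 to 26, 0 to 2 and 0 to 24.

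The labels give the groups the same replicate numbers and name no shared culture, and the difference between the replicates had a Pearson's r over all genes of 0.188 between vehicle and MASM7, 0.152 between vehicle and MFI8 and 0.165 between MASM7 and MFI8, and of 0.917, 0.795 and 0.752 over the 10 members. With the replicate number as a block, 720, 554 and 439 genes passed (5.04%, 3.88% and 3.07%), and 670, 170 and 759 with the block and the GC and length offsets. The members that passed with the block alone are given with each comparison. With the offsets added, Dusp5 no longer passed for MFI8 against vehicle, none passed for MASM7 against vehicle, and Dusp4 and Spry2 also passed between the treatments. Without the filter, and without the block, Dusp1, Dusp4 and Dusp8 passed for MFI8 against vehicle and Dusp1 and Dusp8 between the treatments. Dusp1 also passed without MFI8 replicate 1 in both comparisons with MFI8, and with DESeq2 between the treatments. Among the other genes named for MFI8 against vehicle, Plaur, Myc, Etv1, Pdgfra, Pdgfrb, Ereg and Dusp16 passed with the block, and Dusp9, Braf and Cbl, but not Ereg, with the offsets added. Without the filter Plaur, Myc, Etv1 and Pdgfra passed, and with DESeq2 Plaur and Myc. The cause was not tested.

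The number of members with an unadjusted p under 0.05, an alternative count added after seeing the data, was 6, 4 and 5 with no filter, 6, 4 and 6 with the block, and 6, 5 and 6 with the block and the offsets. It was 1 for MFI8 against vehicle in all 3 limma fits, 1 for MASM7 against vehicle and 2 for MFI8 against MASM7 with only the groups compared, and 2 for MFI8 against MASM7 with library size alone. Leaving out 1 library gave 2 to 4, 1 to 2 and 2 to 3.

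The median of the members moved from -0.015 to 0.17 for MFI8 against vehicle and from -0.026 to 0.22 for MASM7 against vehicle with 1 library left out, each below 0 without vehicle replicate 2. For MFI8 against MASM7 it ran from -0.040 to 0.11, and was 0.034 with library size alone, -0.00021 with no filter, 0.056 in the limma fits and -0.011 with the offsets, with and without the block. Scalings moved the median of all genes by at most 0.0214.

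Several values turned sign. For Spred2 the limma fits gave 0.0089 and 0.0091 for MFI8, -0.0017 and -0.0018 for MASM7 and 0.011 between the treatments, and for Dusp9 0.0036 for MFI8. Between the treatments, Dusp5 was -0.0098 with no filter and -0.0035 with at least 10 counts in every library, and Spred1 was -0.033 with the offsets and -0.032 with the block added. For MFI8 against vehicle and with 1 library left out, Dusp6 ran from -0.22 to 0.15, Spry2 from -0.21 to 0.040, Spred2 from -0.072 to 0.040, Dusp9 from -0.12 to 0.077, Pdgfra from -0.71 to 0.033, Lrig1 from -0.26 to 0.16, Il17rd from -0.12 to 0.021, Cbl from -0.010 to 0.13, Dusp5 from -0.023 to 0.43, Spry4 from -0.0059 to 0.098, Spry1 from -0.24 to 0.037 and Dusp16 from -0.051 to 0.53. For MASM7 against vehicle and with 1 library left out, Dusp5 ran from -0.026 to 0.42, Dusp6 from -0.059 to 0.31, Dusp8 from -0.37 to 0.28, Spry2 from -0.026 to 0.22 and Spred2 from -0.04 to 0.070. Between the treatments and with 1 library left out, Dusp5 ran from -0.11 to 0.12 and Spred1 from -0.089 to 0.14. Dusp1, Dusp4, Dusp8 and Dusp10 kept a higher value for MFI8 against vehicle in all 18 alternatives. For Dusp1, Dusp4 and Dusp10, whose MFI8 libraries lay above both vehicle libraries, leaving out a library could hardly turn the sign. The share of all genes that kept their sign is not given.

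With 2 libraries a group, the spread of Dusp1 under MFI8 limits what can be said of its size.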

Other observations

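The libraries numbered 1 and 2 differed in a similar way in each group for most members, although the labels do not say what the numbers stand for. Dusp4, Dusp5, Dusp6, Dusp10, Spry2 and Spred1 were lower in replicate 2 than in replicate 1 in all 3 groups, which is 6 of 10 members against 19.4% of all genes tested. Dusp1 and Dusp8 were higher in replicate 2 in all 3 groups, as were 20.5% of all genes. Spry4 and Spred2 did not keep 1 direction. For Dusp1 the difference between the replicates was 0.333 CPM with vehicle, 0.357 CPM with MASM7 and 8.96 CPM with MFI8.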
